A study of Mus musculus with 24 samples.

Results

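Saa1, Saa2, Saa3, Saa4, Lcn2, Hp, Hpx, Orm1, Orm2 and Orm3 encode secreted proteins of the acute phase response, which the liver releases into plasma during infection or injury. All 10 genes were followed in livers of fed and fasted mice with or without hepatocyte p110α. Saa4 was the member with the largest change. It fell 3.38-fold with fasting in livers labelled LKO and was 4.47-fold lower there than in fasted livers labelled LWT, whereas its fasting change in LWT was within the spread between mice. Orm1 and Orm2 fell with fasting in both genotypes, though the Orm1 probe may also read Orm2. Hp rose slightly in both genotypes, and Hpx was slightly higher in LKO in both feeding states. The Hp rise in LKO and the fasted Hpx difference did not pass the test under 2 other scalings. Saa1, Saa2 and Lcn2 varied more between mice of 1 group than between groups, and 2 of the 24 livers held them at levels far above the rest of their groups.

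Each gene was read from the probe that carried its name on the array, controls excluded. Lcn2 and Orm3 had 2 probes each, so the 10 genes had 12 probes, and the probe with the highest mean over the arrays stood for its gene. The chosen probe of all 10 members was well above background on all 24 arrays. The members are 10 of 21495 genes that passed the filter on dim probes.

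RNA came from whole livers of male mice aged 12 weeks, 1 array for each mouse and 6 mice in each of 4 groups. LWT stands for p110aLWT (p110αhep+/+), littermates that carry the floxed gene without Cre, and LKO for p110aLKO (p110αhep-/-). In LKO the albumin promoter drives Cre recombinase in hepatocytes, where it removes part of Pik3ca, the gene of the phosphoinositide 3-kinase subunit p110α, while other liver cells keep the gene. LWT_Fed and LKO_Fed mice ate ad libitum, LWT_Fasted and LKO_Fasted mice had no food for 24 h, and every mouse was killed at ZT16, in the dark phase. All mice thus carry floxed alleles, and the Cre transgene is present only in LKO, so that its presence and the loss of p110α cannot be told apart.

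Acute phase proteins are made mainly by hepatocytes. Interleukin 6 drives them through STAT3 and C/EBP factors, interleukin 1 and tumour necrosis factor add to this through NF-κB, and glucocorticoids strengthen the response. Serum amyloid A proteins (Saa1 to Saa4) ride on high density lipoprotein, and Saa4 is known as the constitutive form. Lipocalin 2 (Lcn2) withholds iron from bacteria by binding their siderophores. Haptoglobin (Hp) binds free haemoglobin, hemopexin (Hpx) binds free haem, and the orosomucoids (Orm1 to Orm3) carry lipids and drugs in plasma.

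Values are normalized log2 signals, so a difference of 1 is a doubling, and a level of 1 probe is never set against that of another. Arrays had 54.7% to 63.0% of their spots well above background. All 10 hepatocyte markers passed the filter, and their mean level lay between 17.11 and 17.46 on every array. The probe for Pik3ca read 11.91 ± 0.21 in fed LWT livers and 12.54 ± 0.26 in fed LKO livers, and 12.28 ± 0.14 and 12.26 ± 0.19 in the fasted livers of both genotypes in that order (SD, n = 6 each). In limma LKO exceeded LWT by 0.58 in fed livers (SE 0.114, adjusted p = 0.00155) and differed by -0.02 in fasted livers (adjusted p = 0.931). It was thus not called lower in LKO, and where it lies relative to the deleted part was not examined, so genotypes are named here as the arrays are labelled.

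2 livers stood apart in the members themselves. In LWT_Fed replicate 3, Saa1 read 17.85 against 13.46 to 14.15 in the other 5 fed LWT livers, Saa2 read 17.97 against 13.46 to 14.19, and Lcn2 read 13.74 against 8.73 to 9.81. Lcn2 was 26.2-fold, Saa2 17.2-fold and Saa1 15.2-fold above the median of the others, which gave them ranks 1, 3 and 4 among all 21495 genes of that liver ordered by this excess. In LKO_Fasted replicate 4, Saa2 read 16.40 against 12.94 to 14.07, Saa1 16.35 against 12.96 to 14.12, and Lcn2 11.86 against 9.31 to 9.96. These are excesses of 10.5-fold, 9.81-fold and 4.54-fold. Both livers were therefore high in the strongly inducible members.

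In LWT_Fed replicate 3, 9 of the 10 members lay above every other liver of the group, against 23.0% of all genes. The exception was Saa4, at 13.66 within the 13.31 to 13.68 of the others. In LKO_Fasted replicate 4, all 10 members lay above the rest of the group, against 25.1% of all genes, Saa4 among them at 12.05 against 10.97 to 11.84. Of 27 other positive acute phase genes, 15 were above all others in the first liver and 12 in the second. In the same order, 2 and 3 of these genes lay below all others. Mt2, a metallothionein, read 13.67 in the first against 9.98 to 10.84, and Apcs, serum amyloid P, read 12.95 in the second against 10.50 to 11.70.

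Markers of several cell types, hepatocytes among them, were high or low in the same livers. Of 8 neutrophil markers that passed the filter, 5 and 6 lay above all other livers of their groups, against the same 23.0% and 25.1% of genes, and their mean level was 9.05 and 9.29, the highest of groups that began at 8.35 and 8.36. S100a8 read 8.55 against 6.63 to 7.62 in the first liver and 9.07 against 6.82 to 7.98 in the second. Of this marker list, Ngp, Ltf, Retnlg and Cxcr2 did not pass the filter, and the part of neutrophils in the members' levels was not tested. The mean level of 6 cholangiocyte markers was also the highest of its group in both livers, at 7.91 and 7.05, as was that of 10 hepatocyte markers, at 17.26 and 17.32. Adipocyte (7.29) and stellate cell markers (9.86) were highest of their group in LWT_Fed replicate 3, but not in LKO_Fasted replicate 4. Kupffer cell and macrophage markers (11.22) and endothelial markers (10.46) were lowest of their group in LWT_Fed replicate 3, and pancreas markers (9.84) in LKO_Fasted replicate 4. The part of these cells was not tested either. The fit gave these livers low weights of 0.317 and 0.356, on a scale where an average array has 1, so they count less in each fold change than in the group means. Both livers were noticed through the levels of these genes, so the values without them given below are descriptions of how far a result rests on them.

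**Figure D1:**
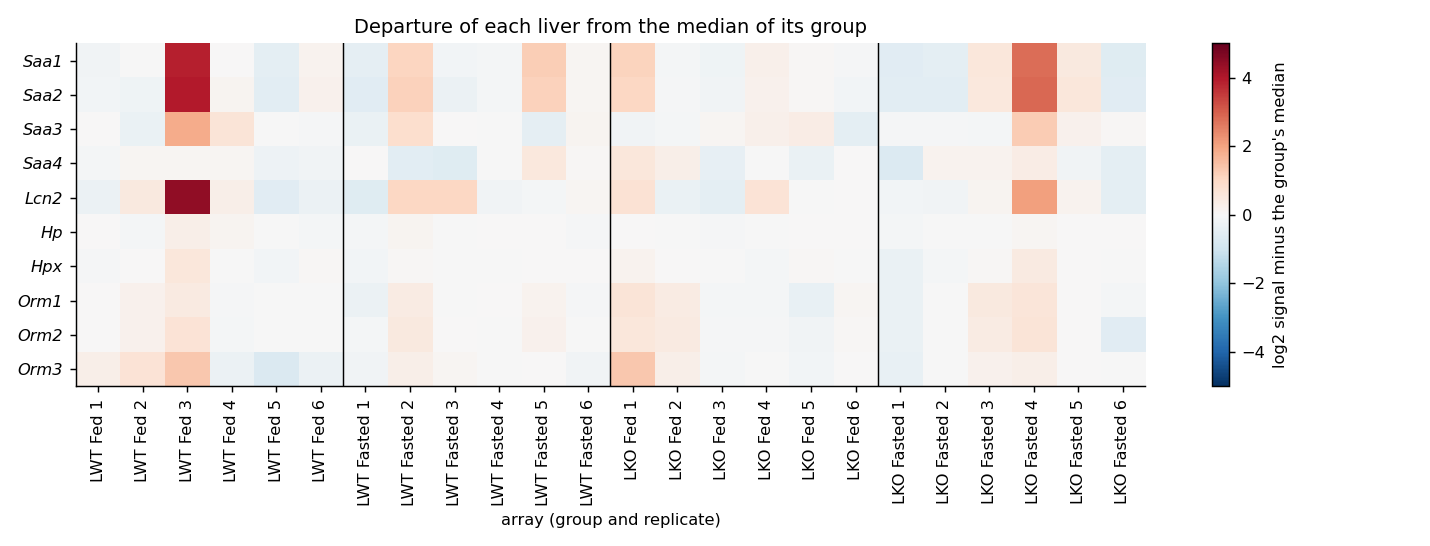
Departure of each member (rows) in each liver (columns, by group and replicate) from the median of its group, in log2 units, with red above and blue below. LWT_Fed replicate 3 and LKO_Fasted replicate 4 are red across Saa1, Saa2, Saa3 and Lcn2, and Saa4 of LWT_Fed replicate 3 is pale.

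Counts of members were then set against those of all genes in 5 contrasts. A gene was called when its adjusted p from limma, a linear model fitted to all probes, was at most 0.05 and its change exceeded 1.5-fold. With fasting in LWT, 1 of the 10 members was called, Orm2, which was lower, against 9.97% of all genes in either direction and 5.2% called lower. With fasting in LKO, 3 members were called, all lower, namely Saa3, Saa4 and Orm3, against 12.7% of genes in either direction and 6.82% called lower. Between genotypes, Orm3 was called higher in fed LKO, against 3.84% of genes in either direction and 2.66% called higher. Saa4 was called lower in fasted LKO, against 4% of genes in either direction and 2.22% called lower. The difference between the fasting changes of both genotypes was called for Saa4 alone, negative, against 2.98% of genes in either direction and 1.47% on that side. In a list of 10 a single gene is already 10%, so a count of 1 cannot be set apart from these shares.

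The median log2 change of the 10 members was -0.02 with fasting in LWT and -0.55 with fasting in LKO, beside -0.01 and -0.02 for all genes. Between genotypes it was 0.27 when fed and -0.17 when fasted, beside -0.0135 and -0.0037 for all genes. Without a minimum fold, 3 members passed the adjusted p with fasting in LWT, where 40.7% of genes did, and 6 passed with fasting in LKO, where 41.3% did. In fed and in fasted livers 2 members passed between genotypes, where 16.2% and 20% of genes did. Saa4 alone passed for the difference between the fasting changes, where 7.52% of genes did.

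**Figure D2:**
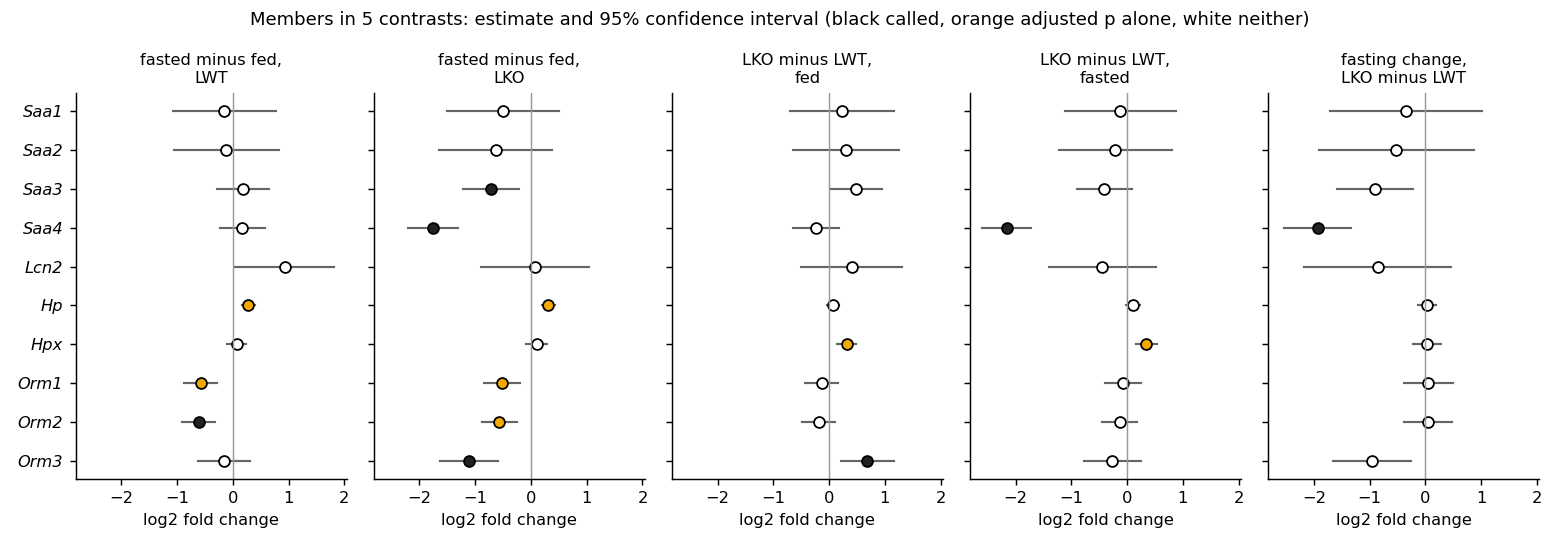
Log2 fold change (horizontal axis) of each member (rows) in 5 contrasts from the fit to 24 arrays, with 95% confidence intervals as lines. Black points were called, orange points passed the adjusted p alone and white points passed neither. Saa4 stands left of 0 in the LKO fasting, fasted genotype and last panels, and the intervals of Saa1, Saa2 and Lcn2 are the widest.

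Saa4 had its lowest level in fasted LKO livers. In LWT its signal ran from 13.31 to 13.68 with a median of 13.58 in fed livers and from 13.10 to 14.24 with a median of 13.69 in fasted livers. In LKO it ran from 12.82 to 13.83 with a median of 13.25 in fed livers and from 10.97 to 12.05 with a median of 11.66 in fasted livers. The 6 LKO_Fasted livers thus overlapped neither with LKO_Fed nor with LWT_Fasted, and the other 3 groups overlapped with each other.

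The fall with fasting in LKO was -1.76 on the log2 scale (SE 0.213, adjusted p = 7.88e-07). In LWT the fasting change was 0.17 (SE 0.196, adjusted p = 0.528, 95% confidence interval -0.24 to 0.58). The difference between these changes was -1.93 (SE 0.29, adjusted p = 0.000416). Between genotypes Saa4 differed by -2.16 in fasted livers (SE 0.211, adjusted p = 6.13e-07) and by -0.23 in fed livers (SE 0.198, adjusted p = 0.475, interval -0.64 to 0.18). In whole liver RNA, fewer cells of a type and less RNA per cell cannot be told apart.

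Each slide held 2 arrays of every group, and the fall in LKO was -1.48, -1.71 and -1.95 within the 3 slides, while the fasted genotype difference was -1.51, -1.75 and -2.88. Under 34 other settings the difference between the fasting changes stayed between -2.08 and -1.75, with adjusted p of at most 0.00234. Without LWT_Fed replicate 3 and LKO_Fasted replicate 4 the Saa4 calls were the same.

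Mean levels of markers of some cell types, hepatocytes among them, were also lower in LKO_Fasted than in LWT_Fasted. The mean level of 6 cholangiocyte markers lay between 6.51 and 7.05 against 7.33 and 7.58, with 1 of 6 called lower. That of 5 adipocyte markers lay between 6.16 and 6.61 against 6.42 and 8.15, with 2 of 5 called lower, and of this list Adipoq and Ucp1 did not pass the filter. That of 10 hepatocyte markers lay between 17.21 and 17.32 against 17.33 and 17.46. That of Cela1 and Ctrb1 lay between 9.84 and 10.16 against 10.43 and 10.90, with 1 of 2 called lower. They come from a list of 6 pancreas markers, of which Prss1, Cpa1, Amy2b and Pnlip did not pass the filter. Over all genes 2.22% were called lower in fasted LKO, and a count of 1 in so short a list cannot be set apart from that share. The part of these cells in the Saa4 result was not tested.

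**Figure D3:**
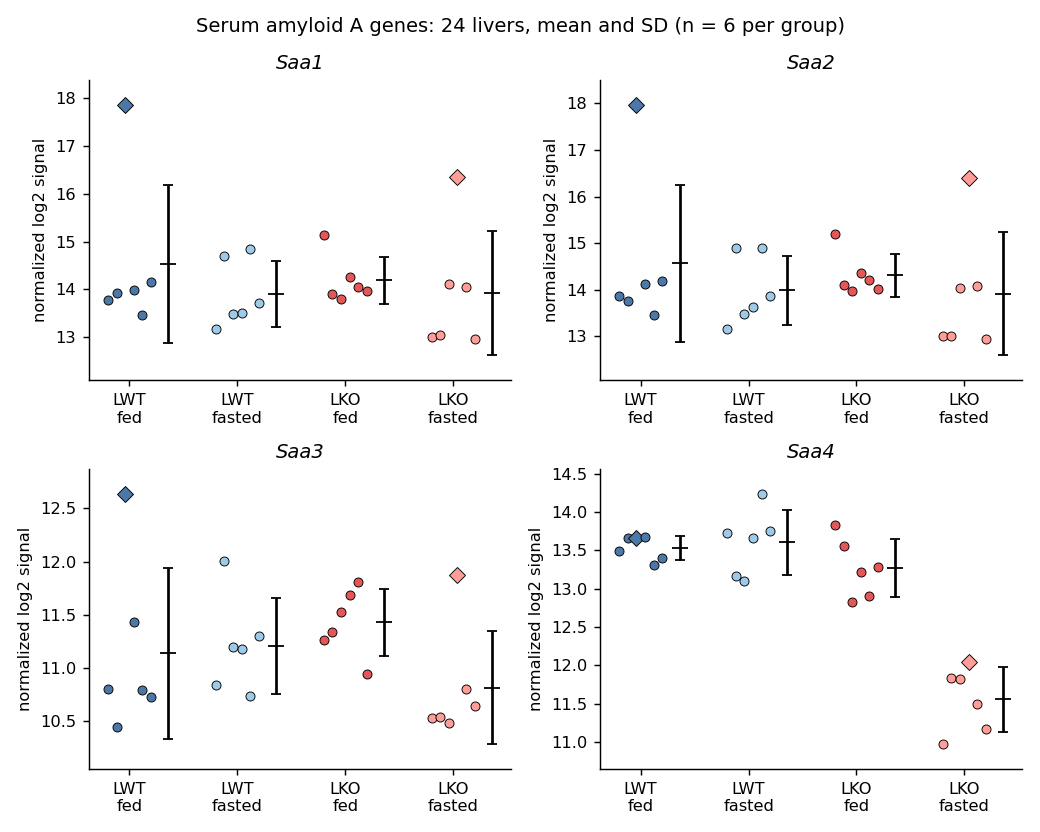
Normalized log2 signal (vertical axis, a separate scale for each gene) of Saa1, Saa2, Saa3 and Saa4 in 24 livers by group, with the mean and SD of 6 livers beside the points. Diamonds mark LWT_Fed replicate 3 and LKO_Fasted replicate 4, which are the highest points of Saa1 and Saa2 in their groups, and Saa4 is low in all 6 LKO_Fasted livers.

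Saa1 and Saa2, the main inducible serum amyloids of mouse liver, moved as 1 unit from liver to liver. Saa1 had a median of 13.96 in LWT_Fed (13.46 to 17.85), 13.61 in LWT_Fasted (13.18 to 14.84), 14.01 in LKO_Fed (13.79 to 15.14) and 13.55 in LKO_Fasted (12.96 to 16.35). Saa2 had medians of 14.00, 13.74, 14.15 and 13.52 in the same order, with ranges of 13.46 to 17.97, 13.16 to 14.90, 13.96 to 15.20 and 12.94 to 16.40. All groups overlapped, and within LKO_Fasted, replicates 1, 2 and 6 were near 13, replicates 3 and 5 near 14 and replicate 4 above 16 for both genes.

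Neither gene passed the test in any contrast. The fasting change of Saa1 was -0.16 in LWT (SE 0.444, adjusted p = 0.813, 95% confidence interval -1.08 to 0.77) and -0.51 in LKO (SE 0.484, adjusted p = 0.431, interval -1.51 to 0.50). Falls of more than 2-fold lie inside both intervals, and rises of that size lie outside them. Without the 2 livers that stood apart, the fasting change of Saa2 in LKO became -0.88 with an adjusted p of 0.0364. That of Saa1 in LWT turned to 0.03. Those livers were noticed through Saa1 and Saa2 themselves, so these values are descriptions. After group and slide means were taken off, Saa1 and Saa2 correlated with r = 0.998 over 24 arrays and 0.992 over 22 without those livers. Whether either probe also binds the other transcript was not tested.

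The windows upstream of these genes show how alike Saa1 and Saa2 are, while those of Saa3 and Saa4 differ from them and from each other. The 250 bases before the transcript start are given from RefSeq on GRCm38.p6, whose table holds such a window for 8 members, all but Hp and Orm1. The start used for Saa1, Saa3 and Orm3 lies inside the extent that RefSeq gives for the gene, and the Saa3 window is wholly inside it. Capitals mark matches to TTGCNNAA, a core motif of C/EBP factors, on either strand.
Saa1 (chr7:46742981-46743230, minus strand): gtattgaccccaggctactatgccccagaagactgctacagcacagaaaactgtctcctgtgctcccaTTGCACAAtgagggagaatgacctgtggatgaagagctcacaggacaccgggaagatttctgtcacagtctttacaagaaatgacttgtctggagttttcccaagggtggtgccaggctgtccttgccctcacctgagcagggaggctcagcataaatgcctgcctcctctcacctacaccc
Saa2 (chr7:46751583-46751832, plus strand): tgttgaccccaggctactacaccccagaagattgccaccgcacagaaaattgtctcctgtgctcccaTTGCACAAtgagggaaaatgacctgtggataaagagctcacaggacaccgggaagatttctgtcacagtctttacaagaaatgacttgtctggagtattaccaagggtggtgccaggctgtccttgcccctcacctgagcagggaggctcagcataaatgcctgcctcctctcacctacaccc
Saa4 (chr7:46732604-46732853, minus strand): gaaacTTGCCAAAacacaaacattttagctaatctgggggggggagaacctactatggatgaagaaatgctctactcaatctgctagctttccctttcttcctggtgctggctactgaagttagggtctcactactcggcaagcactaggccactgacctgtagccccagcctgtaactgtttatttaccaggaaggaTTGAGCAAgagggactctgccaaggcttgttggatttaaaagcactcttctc
Aligned end to end, the Saa1 and Saa2 windows were identical in 94.82% of columns and both held TTGCACAA, with its first base 182 and 183 bases before the start. The Saa1 and Saa4 windows shared 49.5%, within the 45.72% to 54.95% of pairs from different families. Saa3 lay in the same range, at 52.2% with Saa1, 52.41% with Saa2 and 47.18% with Saa4. All 4 serum amyloid genes lie in 1 stretch of chromosome 7, from 46711998 to 46754313 on that build, and their probes lie at 53967559 to 54009594 on mm9.

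Saa3, an inducible serum amyloid that macrophages and adipocytes also make, fell with fasting in LKO. In LKO its median was 11.43 in fed livers (10.94 to 11.81) and 10.59 in fasted livers (10.48 to 11.87). In LWT its median was 10.79 in fed livers (10.44 to 12.64) and 11.18 in fasted livers (10.73 to 12.01). Apart from LKO_Fasted replicate 4, every fasted LKO liver lay below every fed LKO liver, at 10.80 or less.

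The change in LKO was -0.71 (SE 0.242, adjusted p = 0.0219) and that in LWT 0.18 (SE 0.222, adjusted p = 0.551). Their difference of -0.90 did not pass (SE 0.329, adjusted p = 0.103). The LKO call was lost without LKO_Fasted replicate 1 or 2 (adjusted p 0.0548 and 0.054) and without array weights (0.0842), and within slides the change was 0.07, -0.89 and -1.02. The slide at 0.07 holds LKO_Fasted replicate 4. Without that liver and LWT_Fed replicate 3, the difference between the fasting changes was -1.06 with an adjusted p of 0.0161. Saa3 was then 0.55 higher in fed LKO than in fed LWT, with an adjusted p of 0.0409. Both livers were noticed through the members, so these values are descriptions. The mean level of 10 macrophage markers ranged from 10.61 to 12.53 in LKO_Fasted and from 10.95 to 11.66 in LKO_Fed, and the part of macrophages in these values was not tested.

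Lcn2 did not pass the test in any contrast. Its median was 9.31 in LWT_Fed (8.73 to 13.74) and 10.19 in LWT_Fasted (9.58 to 11.22), and 9.67 in LKO_Fed (9.17 to 10.39) and 9.80 in LKO_Fasted (9.31 to 11.86). The fasting change in LWT was 0.93 (SE 0.429, adjusted p = 0.0905) and missed the threshold. Without LWT_Fed replicate 3 it was 1.11, with an adjusted p of 0.00644. That liver was noticed through its own high Lcn2, so this value is a description and not a test. Without LWT_Fasted replicate 1 the change was 1.11 with an adjusted p of 0.047. It fell to 0.66 with another single array left out and to 0.41 (adjusted p = 0.62) without array weights. In LKO the change was 0.08 (SE 0.468, adjusted p = 0.918), and the difference between the genotypes of -0.85 did not pass (SE 0.634, adjusted p = 0.459).

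The second Lcn2 probe, which lies in another part of the transcript, gave 0.81 with fasting in LWT (SE 0.38, adjusted p = 0.0943) and 0.07 in LKO (SE 0.414, adjusted p = 0.91). It read 10.80 in LWT_Fed replicate 3 against 6.06 to 7.11 in the other fed LWT livers. The excess in that liver was therefore seen by both probes. The chosen probe lies on chromosome 2 at 32240199 to 32240258 and the second between 32241037 and 32241281, on mm9.

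**Figure D4:**
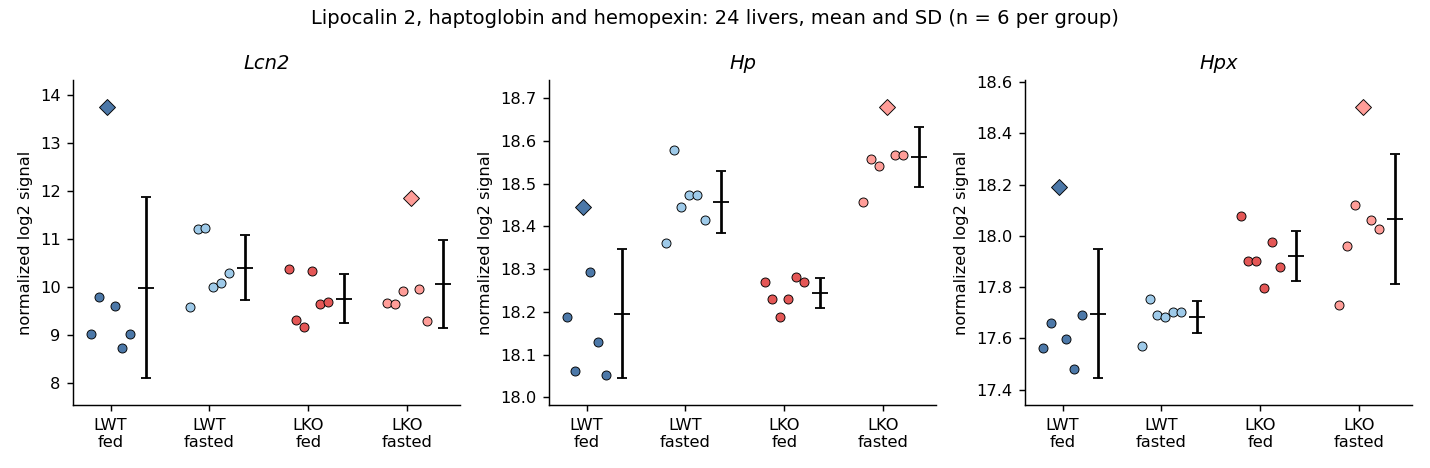
Normalized log2 signal (vertical axis, a separate scale for each gene) of Lcn2, Hp and Hpx in 24 livers by group, with the mean and SD of 6 livers beside the points. Diamonds mark LWT_Fed replicate 3 and LKO_Fasted replicate 4. Most fasted livers of both genotypes lie above the fed ones for Hp, and most LKO livers above LWT for Hpx.

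Hp rose with fasting in both genotypes by a small amount. In LWT it ran from 18.05 to 18.44 with a median of 18.16 in fed livers and from 18.36 to 18.58 with a median of 18.46 in fasted livers. In LKO it ran from 18.19 to 18.28 with a median of 18.25 in fed livers and from 18.46 to 18.68 with a median of 18.56 in fasted livers. The groups did not overlap in LKO, and in LWT LWT_Fed replicate 3 alone reached into the fasted range.

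The change was 0.28 in LWT (SE 0.0538, adjusted p = 0.000232) and 0.31 in LKO (SE 0.0586, adjusted p = 0.000173), 1.21-fold and 1.24-fold, both under the minimum fold. Their difference was 0.03 (95% confidence interval -0.13 to 0.20), and it turned to -0.18 with 75th percentile scaling of the processed signal and -0.14 with median centring. With median centring the LKO change was 0.17 (adjusted p = 0.0642) and with 75th percentile scaling 0.13 (adjusted p = 0.217), so in LKO whether Hp passed the adjusted p depended on the scaling, while its direction did not turn.

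Hpx did not pass the test for fasting in either genotype and was higher in LKO. Its median was 17.63 in LWT_Fed (17.48 to 18.19), 17.70 in LWT_Fasted (17.57 to 17.75), 17.90 in LKO_Fed (17.79 to 18.08) and 18.04 in LKO_Fasted (17.73 to 18.50). Apart from LWT_Fed replicate 3, every fed LWT liver lay below every fed LKO liver. In the fasted state 1 LKO liver, at 17.73, overlapped with LWT.

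LKO exceeded LWT by 0.31 in fed livers (SE 0.0825, adjusted p = 0.0126) and by 0.35 in fasted livers (SE 0.0879, adjusted p = 0.0077), which is 1.24-fold and 1.27-fold. The fed difference kept its direction in all 3 slides, at 0.06, 0.42 and 0.20. It no longer passed without LWT_Fed replicate 5 (adjusted p = 0.0683), without array weights (0.154) or without the filter on dim probes (0.0579). The fasted difference fell to 0.21 (adjusted p = 0.227) with 75th percentile scaling and to 0.22 (adjusted p = 0.158) with median centring.

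Orm1 and Orm2, the main orosomucoids of mouse liver, fell together with fasting. An Orm2 transcript is also listed for the Orm1 probe, so the Orm1 and Orm2 readings may not be separate. Orm2 had a median of 15.61 in LWT_Fed (15.52 to 16.29) and 14.97 in LWT_Fasted (14.86 to 15.45), and of 15.32 in LKO_Fed (15.15 to 15.88) and 14.91 in LKO_Fasted (14.33 to 15.57). Orm1 ran from 16.66 to 17.15 in LWT_Fed, 15.88 to 16.57 in LWT_Fasted, 16.13 to 17.12 in LKO_Fed and 15.68 to 16.62 in LKO_Fasted. For both genes fed and fasted livers did not overlap in LWT and did overlap in LKO.

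The fasting change of Orm2 was -0.62 in LWT (SE 0.141, adjusted p = 0.00129), a 1.53-fold fall, and -0.57 in LKO (SE 0.154, adjusted p = 0.00505). That of Orm1 was -0.58 in LWT (SE 0.144, adjusted p = 0.00265), a 1.49-fold fall, and -0.52 in LKO (SE 0.156, adjusted p = 0.0101). The Orm2 call in LWT rests on the minimum fold, since it fell under 1.5-fold without LWT_Fasted replicate 3 (-0.58) or replicate 6 (-0.56), with an adjusted p that stayed at or under 0.00956. The Orm1 fall in LKO missed the threshold without LKO_Fed replicate 1 (-0.37, adjusted p = 0.0518). The difference between genotypes was 0.05 for both genes, with 95% confidence intervals of -0.39 to 0.49 for Orm1 and -0.38 to 0.48 for Orm2.

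Orm3, the third member of the family, was fed high and fasted low in LKO. Its median was 8.29 in LKO_Fed (8.16 to 9.64) and 7.51 in LKO_Fasted (7.14 to 7.79), without overlap. In LWT its median was 7.95 in fed livers (7.23 to 9.31) and 7.75 in fasted livers (7.56 to 8.03). The fed LWT livers spanned most of the range of the other groups.

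The fall in LKO was -1.11 (SE 0.248, adjusted p = 0.000989), 2.16-fold, and -0.81, -1.28 and -0.91 within the slides. In LWT the change was -0.16 (SE 0.227, adjusted p = 0.62), and the difference between genotypes of -0.95 did not pass (SE 0.336, adjusted p = 0.0901). Without LWT_Fed replicate 3 that difference was -1.03 with an adjusted p of 0.0404. That liver was noticed through the members and had the highest Orm3 of its group, so this value is a description. In fed livers Orm3 was 0.68 higher in LKO (SE 0.23, adjusted p = 0.0482). This call was lost without 7 of 12 single arrays, with adjusted p from 0.0703 to 0.196, namely LKO_Fed replicates 1, 2 and 4 and LWT_Fed replicates 1, 4, 5 and 6. The second Orm3 probe was well above background on 11 of 24 arrays and was not fitted.

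**Figure D5:**
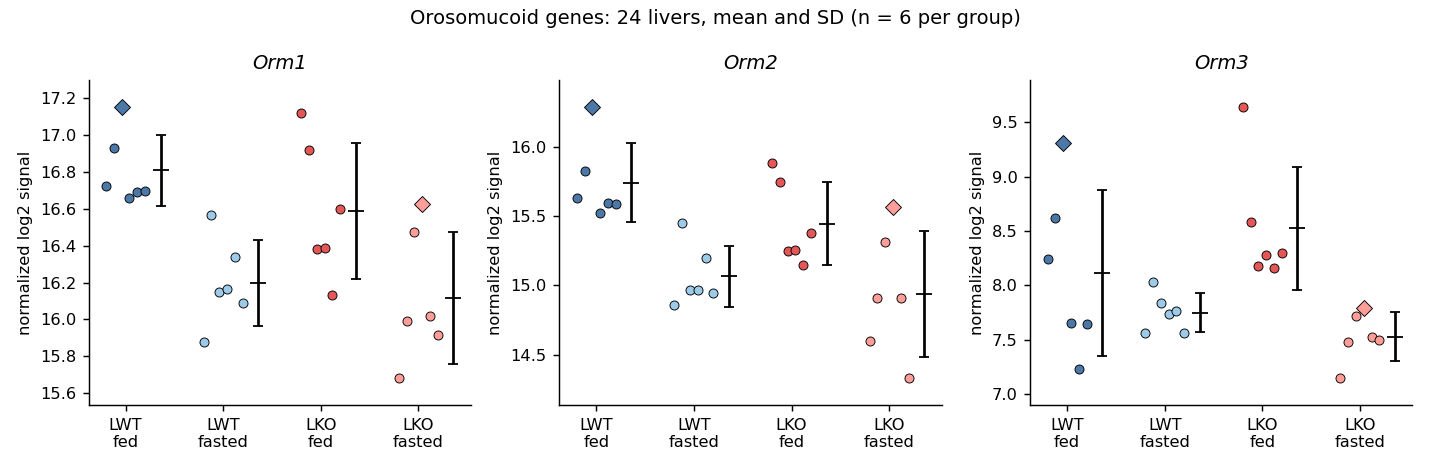
Normalized log2 signal (vertical axis, a separate scale for each gene) of Orm1, Orm2 and Orm3 in 24 livers by group, with the mean and SD of 6 livers beside the points. Diamonds mark LWT_Fed replicate 3 and LKO_Fasted replicate 4. Orm1 and Orm2 are lower in fasted livers of both genotypes, and Orm3 separates fed from fasted livers in LKO.

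The orosomucoid genes are close copies, which bears on what each probe reads. The Orm1 and Orm3 probes read matching stretches of their genes, across an exon junction, and are shown as the array carries them with differing bases in capitals.
Orm1 probe: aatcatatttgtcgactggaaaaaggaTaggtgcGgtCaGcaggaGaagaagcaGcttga
Orm3 probe: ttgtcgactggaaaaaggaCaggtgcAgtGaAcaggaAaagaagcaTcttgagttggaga
They overlap over 52 bases, of which 46 are identical and 6 differ. The files list an Orm2 transcript beside that of Orm1 for the Orm1 probe, so Orm1 cannot be told from Orm2 by it, and cross-hybridization of the Orm3 probe was not tested. The Orm2 probe lies elsewhere, on chromosome 4 at 63024979 to 63025038 of mm9, and names Orm2 alone.

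The Orm2 and Orm3 windows upstream of the start are shown because both genes fell with fasting in LKO. Capitals mark TTGCNNAA and, nearer the start, TATAAA.
Orm2 (chr4:63362199-63362448, plus strand): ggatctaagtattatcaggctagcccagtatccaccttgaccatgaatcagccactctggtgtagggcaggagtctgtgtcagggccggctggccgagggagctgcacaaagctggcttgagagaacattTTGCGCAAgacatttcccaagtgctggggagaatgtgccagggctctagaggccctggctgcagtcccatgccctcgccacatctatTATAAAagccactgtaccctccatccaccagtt
Orm3 (chr4:63355908-63356157, plus strand): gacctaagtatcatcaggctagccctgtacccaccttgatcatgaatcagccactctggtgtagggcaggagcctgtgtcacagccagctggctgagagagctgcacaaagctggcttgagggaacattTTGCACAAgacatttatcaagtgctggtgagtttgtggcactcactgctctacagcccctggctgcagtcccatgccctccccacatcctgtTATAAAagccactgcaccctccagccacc
The windows were identical in 85.88% of aligned columns. Orm2 held TTGCGCAA and Orm3 TTGCACAA, with the first base 120 and 121 bases before the start, and TATAAA lay at 33 and 29 bases.

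Each of the 8 member windows held at least 1 match to TTGCNNAA, a motif found in 9.56% of 32851 windows of the same length. None held TTCNNNGAA, the STAT motif found in 7.02% of windows, or GGGNN followed by TTTCC, an NF-κB motif found in 1.41%. TATAAA, found in 12.4%, was in Orm2 and Orm3 only among the members. All motifs were read on both strands. The near identity of Saa1 with Saa2 and of Orm2 with Orm3 means that these 8 windows are not separate cases. A match is a run of letters and not a shown binding site, and a missing match concerns these letters in this window alone.

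Members differed in their spread between mice of 1 group, as it stood after quantile normalization, which gives every array the same set of values. The pooled SD within groups was 1.16 for Saa2, 1.13 for Saa1 and 1.13 for Lcn2, above that of at least 99.87% of genes, and 0.55, 0.54 and 0.51 without the 2 livers that stood apart. It was 0.55 for Saa3, 0.50 for Orm3, 0.36 for Saa4, 0.33 for Orm2, 0.30 for Orm1 and 0.19 for Hpx. Hp had 0.09, above 7.09% of genes, and the median of all genes was 0.16. How far the scaling narrows the spread of Hp was not tested. LKO_Fed replicate 1 was the highest liver of its group for Saa1 (15.14), Saa2 (15.20) and Orm3 (9.64). The same held for Saa4 (13.83), Lcn2 (10.39), Hpx (18.08), Orm1 (17.12) and Orm2 (15.88), but not for Saa3 and Hp.

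Correlations between members depended on the 2 livers that stood apart. After group and slide means were taken off, the 36 pairs without Saa4 had r from 0.24 to 0.998 over 24 arrays, and the 9 pairs with Saa4 from -0.10 to 0.57. Without those livers the ranges were -0.099 to 0.992 and -0.436 to 0.543, and so overlapped widely. Orm1 and Orm2 had r = 0.907, and 0.902 without those livers, but the Orm1 probe may also read Orm2. Saa3 fell to r of -0.089 with Orm1 and 0.184 with Saa1, while Saa4 had 0.52 with Orm1 and 0.445 with Saa1. Saa1 and Lcn2 had r = 0.88, but 0.507 without them, and Saa1 and Hpx 0.904 and 0.624. Arrays share slides, and these coefficients are descriptions.

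Genes outside the list were ranked by the same measure for each member. The closest to Saa1 were Shank2 (r = 0.894) and C4a, complement component 4a (0.885), and the same genes were closest to Saa2 and Hpx. Tmem176a was closest to Saa3 (0.834), followed by S100a4, a calcium-binding protein (0.827), and to Lcn2 (0.863), followed by Atxn7l2 (0.859). S100a4 was closest to Hp (0.818), followed by Dip2b (0.814). Saa4 was closest to Nprl2 (0.793) and to S1pr1, a sphingosine-1-phosphate receptor (0.792). Without the 2 livers, r was 0.774 and 0.829 for this last pair of genes, but 0.708 for Shank2 with Saa1, 0.457 for Shank2 with Hpx and 0.391 for Tmem176a with Lcn2. Prtn3, a neutrophil protease, was closest to Orm1 (0.82), followed by Cyb561 (0.812). A probe for an unnamed locus on chromosome 1 was closest to Orm2 (0.797), with Cyb561 next (0.775). Map3k3 was closest to Orm3 (0.765), followed by Lrg1, itself an acute phase gene (0.743).

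Other positive acute phase genes moved in both directions with fasting. Of 28 positive acute phase genes outside the list, 27 passed the filter. With fasting 8 were called higher and 1 lower in LWT, and 7 higher and 2 lower in LKO. Over all genes, 4.77% were called higher and 5.2% lower with fasting in LWT, and 5.87% and 6.82% in LKO. The largest rises were those of the metallothioneins Mt2 (6.41 in LWT, SE 0.436, and 4.86 in LKO, SE 0.475) and Mt1 (4.78 and 3.95). Steap4, a metalloreductase, changed by -0.95 in LWT and -1.12 in LKO, and Mbl2, a mannose-binding lectin, by -0.89 in LKO. Fgl1, a fibrinogen-like hepatokine, was higher in LKO by 1.24 in fed (SE 0.184) and 1.29 in fasted livers (SE 0.196).

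Between genotypes 3 genes of that list were called in each feeding state, all higher in LKO, against 3.84% of all genes in fed and 4% in fasted livers. Mt2 was 2.04 higher in fed LKO. Il1rn, the interleukin 1 receptor antagonist, was 1.99 higher in fasted LKO (SE 0.233, adjusted p = 5.57e-06) and its fasting changes differed between genotypes by 1.84, the only such call of the list, in which 1 other gene passed the adjusted p alone. Over all genes 2.98% were called for this difference, so 1 call cannot be set apart from that share. Il1rn was well above background on only 2 of 6 LWT_Fed arrays. The median change of the list was 0.16 and 0.04 with fasting in LWT and LKO, where the members had -0.02 and -0.55. Of 13 negative acute phase genes, which fall in inflammation, Serpina6, the corticosteroid-binding globulin, changed by -0.92 with fasting in LKO (SE 0.174). It was the only call of that list in the 5 contrasts, beside 6.82% of all genes called lower with fasting in LKO. A count of 1 of 13 cannot be set apart from that share. In each contrast 1 to 3 of the 13 genes passed the adjusted p with no minimum fold. With fasting 1 gene passed in LWT and 2 in LKO, where 40.7% and 41.3% of all genes did. Between genotypes 3 passed in fed and 2 in fasted livers, where 16.2% and 20% did, and 1 passed for the difference, where 7.52% did.

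Of 14 genes of interleukin 6 signalling that passed the filter, 6 were called in LWT, all higher, and 5 were higher and 1 lower in LKO. Over all genes the shares called higher and lower were 4.77% and 5.2% in LWT and 5.87% and 6.82% in LKO. The median change of the list was 0.26 and 0.11. Socs3, a feedback inhibitor of STAT3, rose by 1.67 in LWT (SE 0.226) and 1.98 in LKO (SE 0.247), and was 0.93 higher in fasted LKO than in fasted LWT. Il6ra, the interleukin 6 receptor, rose by 1.22 in LWT, and the change in LKO minus that in LWT was -1.19 (SE 0.243, adjusted p = 0.00511). Pim1, a kinase and STAT3 target, rose by 1.08 in LKO, where its fed and fasted means were 10.63 and 11.68, beside 10.29 and 11.33 in LWT. Lifr, a receptor of the same family, changed by -0.91 in LKO, and was 0.60 higher in fed LKO than in fed LWT (SE 0.139). Its fasting changes differed by -0.71 (SE 0.203). Of the 14 genes 2 were called for that difference, both negative, beside 1.47% of all genes on that side.

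Of 24 genes of interleukin 1, TNF and NF-κB signalling, 2 were called higher and 2 lower with fasting in LWT, and 2 higher and 4 lower in LKO, with list medians of -0.12 and -0.04. Over all genes the shares were 4.77% and 5.2% in LWT and 5.87% and 6.82% in LKO, and the counts of 2 are near them. Il1r1, the interleukin 1 receptor, read 10.23 ± 0.30 in fed and 11.87 ± 0.24 in fasted LWT livers, and 10.44 ± 0.41 in fed and 10.52 ± 0.29 in fasted LKO livers (SD, n = 6 each). It rose by 1.64 in LWT, and the change in LKO minus that in LWT was -1.66 (SE 0.268, adjusted p = 0.00074). Of the 24 genes 2 were called for that difference, both negative, beside 1.47% of all genes on that side. The chemokine Cxcl1 changed by -0.91 in LWT and -1.74 in LKO, the chemokine Ccl2 by -1.22 in LWT, and Tnf by -1.15 in LKO. In LKO the cytokine Il1b rose by 0.99 (SE 0.394, adjusted p = 0.0478) and Myd88, an adaptor of interleukin 1 and Toll-like receptors, by 0.71. Il1b read 7.41 ± 0.20 in fed and 8.39 ± 1.08 in fasted LKO livers (SD), and the fasted livers ran from 6.91 to 9.88.

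Of 10 genes of glucocorticoid signalling, 4 were called higher and 2 lower with fasting in LWT, and 3 higher and 2 lower in LKO, with list medians of 0.15 and -0.10, beside 4.77% and 5.2% of all genes in LWT and 5.87% and 6.82% in LKO. Fkbp5, a chaperone partner of the glucocorticoid receptor, rose by 2.11 in LWT and was also called higher in LKO. Tsc22d3, which encodes the glucocorticoid-induced leucine zipper, changed by -0.62 in LWT and was also called lower in LKO, and fasted LKO differed from fasted LWT by -1.40 (SE 0.2, adjusted p = 4.9e-05). The difference between its fasting changes was -1.38 (SE 0.274, adjusted p = 0.00413). Fkbp5 was also called lower in fasted LKO than in fasted LWT, with a difference of -0.62 (SE 0.147, adjusted p = 0.00485). The list median was -0.46 between genotypes in fasted livers and -0.46 for the difference, beside -0.0037 and -0.0011 for all genes. Of the 10 genes 2 were called lower in fasted LKO, beside 2.22% of all genes. For the difference 1 was called, on the negative side, beside 1.47%.

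Of 11 receptors and partners of the members that passed the filter, at most 1 was called in each direction in each contrast, and the list medians lay between -0.16 and -0.07. Over all genes the shares called in either direction were 9.97% and 12.7% with fasting in LWT and LKO, 3.84% and 4% between genotypes, and 2.98% for the difference, and 1 gene of 11 cannot be set apart from them. Cd163, the macrophage receptor for haptoglobin with haemoglobin, rose by 0.85 with fasting in LWT (SE 0.181). Scarb1, a receptor for high density lipoprotein and serum amyloid A, changed by -0.61 with fasting in LKO (SE 0.104). For Cd36, a scavenger receptor that also binds serum amyloid A, LKO differed from LWT by -1.19 in fed (SE 0.319) and -1.03 in fasted livers (SE 0.34). In the 10 lists of cell type markers at most 2 genes were called in either direction in any contrast, but some lists are short. The counts of 2 included 2 of 5 adipocyte markers lower in fasted LKO than in fasted LWT, where 2.22% of all genes were called lower. They also included 2 of 6 cholangiocyte and 2 of 7 stellate cell markers lower with fasting in LKO, where 6.82% of all genes were, and 2 of 7 stellate cell markers lower with fasting in LWT, where 5.2% were.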

How the data were processed

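The authors hybridised Cy3-labelled liver RNA to 1-colour Agilent SurePrint G3 mouse arrays and read them with Agilent Feature Extraction 10.10.1.1. The deposited scanner values are spot intensities (median, mean, local background and processed signal) not scaled between arrays, and the deposited matrix holds the authors' log2 values. Probe positions refer to mm9.

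Probes well above background on at least 5 of 6 arrays of a group were kept (32197). Their log2 median intensity was quantile normalized and fitted in limma 3.58.1 (R 4.3.3) with group means, slide and array weights, with Benjamini-Hochberg adjustment over all probes. Calls needed an adjusted p no higher than 0.05 together with a change over 1.5-fold. SE and intervals come from limma, and folds can depart from differences of the raw group means. The model was tested on simulated data.

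The members and gene lists were chosen with earlier results of these data known. Named genes were taken from the members, Pik3ca, at most 2 called rises and 2 called falls for each list and contrast, and the 2 genes closest to each member. Mt2, Apcs and S100a8 were named for the 2 livers that stood apart after their values were seen. Alternatives covered signal, scaling, filter, slide, weights, probe, pairing and single arrays.

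Same-numbered arrays of different groups did not deviate together, so replicate numbers were not taken to pair mice. No saturated spot was found, and precision is limited by the number of arrays.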

Additional observations from a re-analysis of the deposited data

Results flagged for a closer look

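In 11 of 40 gene and group combinations of 6 livers, the highest liver stood far from the others by Dixon's ratio, where chance gives about 1 in 20. LWT_Fed replicate 3 stood out for Saa1 (17.85), Saa2 (17.97), Lcn2 (13.74) and Hpx (18.19). LKO_Fasted replicate 4 stood out for Saa1 (16.35), Saa2 (16.40), Saa3 (11.87) and Lcn2 (11.86). LKO_Fed replicate 1 stood out for Saa1 (15.14), Saa2 (15.20) and Orm3 (9.64). The members share these livers, so the 11 cases are not separate.

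The fasting change of Saa4 differed between genotypes, by -1.93 on the log2 scale (adjusted p = 0.000416 in limma), with 6 of 6 LKO_Fasted livers below all LKO_Fed livers.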

How the results depend on the processing

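Of 1265 alternative values for the 50 member changes, 1188 kept their direction and their side of the threshold, among them every one for the called changes of Saa4 and for the fall of Orm3 in LKO. The number of members called was 1, 3, 1, 1 and 1 for fasting in LWT, fasting in LKO, genotype in fed livers, genotype in fasted livers and the difference between the fasting changes. With no minimum fold the first 4 were 3, 6, 2 and 2. Leaving out single arrays gave 0 to 2, 2 to 5, 0 to 1, 1 to 1 and 1 to 3. LWT fasting gave 0 with the processed signal, median centring and the replicate block, and 2 with no filter, no slide term, no array weights or only the compared groups. Fed genotype gave 0 with normexp, no filter, no slide term, no array weights, only the compared groups and without LKO_Fasted replicates 1 and 2. With no slide term the difference between fasting changes was called for 2 members.

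Values turned sign as follows, none of them past the threshold. With the processed signal the differences between fasting changes were -0.181 for Hp and -0.144 for Hpx, and with median centring -0.141 and -0.127. With no array weights Hpx was -0.0137 for LWT fasting, Saa1, Saa2 and Lcn2 were -0.339, -0.256 and -0.228 in fed genotype, Saa1 was 0.0190 in fasted genotype, and the differences between fasting changes were 0.358 for Saa1 and 0.184 for Saa2. With the replicate block, a pairing that the arrays do not bear out, they were -0.0159 for Orm1 and -0.0180 for Orm2. Same-numbered arrays had a median r of -0.015, and 0 of 24 arrays correlated best with their own number. Without LKO_Fasted replicates 1 and 2, which stand apart in other genes, fasted genotype was 0.183 for Saa1, 0.113 for Saa2 and 0.0068 for Orm1.

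Without LWT_Fed replicate 3 and LKO_Fasted replicate 4, chosen after seeing the data, the counts were 2, 5, 1, 1 and 3. In the same order 9.97%, 12.5%, 3.75%, 4.33% and 3.4% of all genes were called in that fit. Both livers were noticed through these members, so the counts are descriptions. Saa1 and Saa2 turned to 0.0294 and 0.0683 for LWT fasting, Lcn2 to -0.0993 for LKO fasting, and the differences between fasting changes to -0.0383 for Hpx, -0.0099 for Orm1 and -0.0350 for Orm2. With single arrays left out, LWT fasting ran from -0.433 to 0.0144 for Saa1, -0.381 to 0.0523 for Saa2 and -0.0048 to 0.312 for Saa4, and LKO fasting of Lcn2 from -0.0736 to 0.255. Genotype ran from -0.0292 to 0.396 for Saa1 in fed livers, and from -0.344 to 0.144 for Saa1 and -0.436 to 0.0431 for Saa2 in fasted livers. The differences between fasting changes ran from -0.0144 to 0.0644 for Hp, -0.0091 to 0.0948 for Hpx, -0.0638 to 0.218 for Orm1 and -0.0634 to 0.175 for Orm2. The cause of these shifts was not tested.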
